A study of Mus musculus with 56 samples.

Results

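Ddc, Lgalsl, Wee1, Usp2 and Noct are genes with strong daily rhythms in mouse liver, here followed in mice fed only by day or only by night. The 5 genes were selected by name for large rhythms under both feeding regimens, on the values of the same livers, out of 25415 genes listed by the authors. All 5 passed the filter on low values that left 13319 genes for the tests. Their rhythms, peak times and the size of the shift between regimens are therefore given as a description, without a test. Tests are given for the daily mean, the amplitude difference between the regimens, levels 12 h apart, ends of the day and the profile shape. The selection did not ask for these, but they use the same values. Tests of amplitude, of levels 12 h apart and of shape are thus not independent of the selection.

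The circadian clock of a hepatocyte is a feedback loop of transcription. BMAL1, encoded by Arntl, and CLOCK activate genes through E-boxes, the PER and CRY proteins that they induce inhibit them, and REV-ERB and ROR proteins set the level of Arntl through ROR elements. DBP, TEF and HLF pass the rhythm on through D-boxes to output genes, which carry it into metabolism, and in the liver the time of feeding is known as a strong cue for the phase of this clock. Of the 5 genes, Ddc encodes DOPA decarboxylase, which makes dopamine and serotonin from their amino acid precursors, and Lgalsl encodes a galectin-like protein. Wee1 encodes the kinase that holds CDK1 inactive before mitosis, Usp2 a ubiquitin-specific protease, and Noct nocturnin, an enzyme that removes a phosphate from NADP(H).

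The 56 livers came from C57BL/6J females, 9 weeks of age, whose food had been limited to the daytime (daytime-restricted feeding, DRF) or to the nighttime (nighttime-restricted feeding, NRF, the reference) for 7 days. All mice lived under 12 h of light and 12 h of darkness, with lights on at zeitgeber time (ZT) 0. Collection ran every 4 h from ZT0 to ZT24 in 7 steps, with 4 animals at each step of each regimen, which gave 28 RNA libraries per regimen and 14 groups in all. No group was untreated or fed at all hours, so each difference is between the regimens and neither is a change from free feeding. Since whole liver was sequenced, fewer cells of a type and less RNA per cell cannot be told apart.

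Levels are given as scaled counts: the deposited gene values were turned back into counts, which keep a scale of their own in each library. These values are not divided by length and so compare livers, not genes. A library held 239 to 535 M of these recovered counts in all, M being 1000000, and they are not reads. Within groups, libraries correlated at between 0.965 and 0.990 across genes. Hepatocyte markers (6 of 6 measured) had a summed deposited value between 1651 and 1825 under DRF and between 1653 and 1846 under NRF, against 16.4 to 52.0 and 15.9 to 66.0 for the 5 lymphocyte markers. The ranges of DRF and NRF overlapped for every one of the 7 marker lists measured, and no marker of these was at 0 in all livers. Markers of pancreatic acinar cells were not analysed here.

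The 5 genes are protein-coding and lie on GRCm38. Ddc (ENSMUSG00000020182) spans 11814101 to 11898144 of chromosome 11 on the minus strand, and Lgalsl (ENSMUSG00000042363) spans 20823576 to 20831056 of the same chromosome and strand. Wee1 (ENSMUSG00000031016) spans 110122046 to 110143286 of chromosome 7, Usp2 (ENSMUSG00000032010) 44067021 to 44095627 of chromosome 9 and Noct (ENSMUSG00000023087) 51224447 to 51251644 of chromosome 3, all on the plus strand. Of the exon bases of Usp2, 4.15% lie in exons of Gm49380 on the opposite strand, which averaged 0.113 scaled counts. No exon base of the other 4 genes is shared with another gene.

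Promoters are shown because Ddc and Lgalsl moved together, as did Usp2 and Noct, at another time of day. Each line gives the 250 bases before a start annotated by RefSeq (GRCm38.p6), 5′ to 3′ on the strand of the gene. Capitals mark a CCAAT box (CCAAT), a GC box (GGGCGG) or a TATA box (TATAAA), searched on both strands.
Ddc, chr11:11898145-11898394, minus strand: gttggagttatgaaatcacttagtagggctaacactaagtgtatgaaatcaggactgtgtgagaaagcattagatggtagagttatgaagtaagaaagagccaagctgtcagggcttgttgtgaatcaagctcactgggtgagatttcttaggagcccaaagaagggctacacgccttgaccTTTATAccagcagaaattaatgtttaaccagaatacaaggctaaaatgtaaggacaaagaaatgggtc
Lgalsl, chr11:20831109-20831358, minus strand: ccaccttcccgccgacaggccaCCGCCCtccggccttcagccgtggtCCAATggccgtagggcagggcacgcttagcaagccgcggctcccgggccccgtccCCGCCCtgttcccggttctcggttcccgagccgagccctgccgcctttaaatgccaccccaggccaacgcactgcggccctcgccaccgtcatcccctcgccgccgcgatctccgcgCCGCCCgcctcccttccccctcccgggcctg
Usp2, chr9:44084670-44084919, plus strand: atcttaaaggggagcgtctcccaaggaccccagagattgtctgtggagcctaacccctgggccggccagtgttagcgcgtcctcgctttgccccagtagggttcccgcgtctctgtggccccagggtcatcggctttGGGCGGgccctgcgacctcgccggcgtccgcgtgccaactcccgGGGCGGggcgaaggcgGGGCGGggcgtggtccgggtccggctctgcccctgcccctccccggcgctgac
Noct, chr3:51224197-51224446, plus strand: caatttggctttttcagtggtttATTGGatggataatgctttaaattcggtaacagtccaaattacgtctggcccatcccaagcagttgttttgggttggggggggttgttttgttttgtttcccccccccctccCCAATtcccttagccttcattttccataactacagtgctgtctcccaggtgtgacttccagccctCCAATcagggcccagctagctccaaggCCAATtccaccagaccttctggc

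The table held a promoter for 4 of the 5 genes. The window of Usp2 lies before a start at 44084920 of chromosome 9. The start of its transcript Usp2-201, at 44067021, had no window and was not searched. The canonical E-box CACGTG, its variant CACGTT, the D-box TTANGTAA and the ROR elements TAGGTCA and TGGGTCA were searched in both directions, and none was in these 4 windows or in that of the second start of Ddc. Over 32851 promoters of the same length, 6.02% held CACGTG, 3.85% CACGTT, 2.06% TTANGTAA, 2.23% TAGGTCA and 3.24% TGGGTCA. The share was 33.8% for the CCAAT box, which Noct held 4 times, Lgalsl once and the second start of Ddc once, and 32.7% for the GC box, which Usp2 and Lgalsl each held 3 times. The TATA box, present in 12.4% of promoters, was found for Ddc from base -68 to base -63, counted from the start. G and C made up 74.4% of the window of Lgalsl, 71.6% of that of Usp2, 49.6% for Noct, 40.8% for Ddc and 56% for its second start, against a median of 52.4%. These matches describe the letters of short windows and say nothing of binding.

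The genes fell into a pair of phases that swapped with the feeding time. Ddc and Lgalsl were highest at the end of the light under DRF and at the end of the dark under NRF. Wee1, Usp2 and Noct were highest in the first hours of the light under DRF and in the first hours of the dark under NRF. Both phases were thus moved by 9.88 to 11.9 h.

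**Figure D1:**
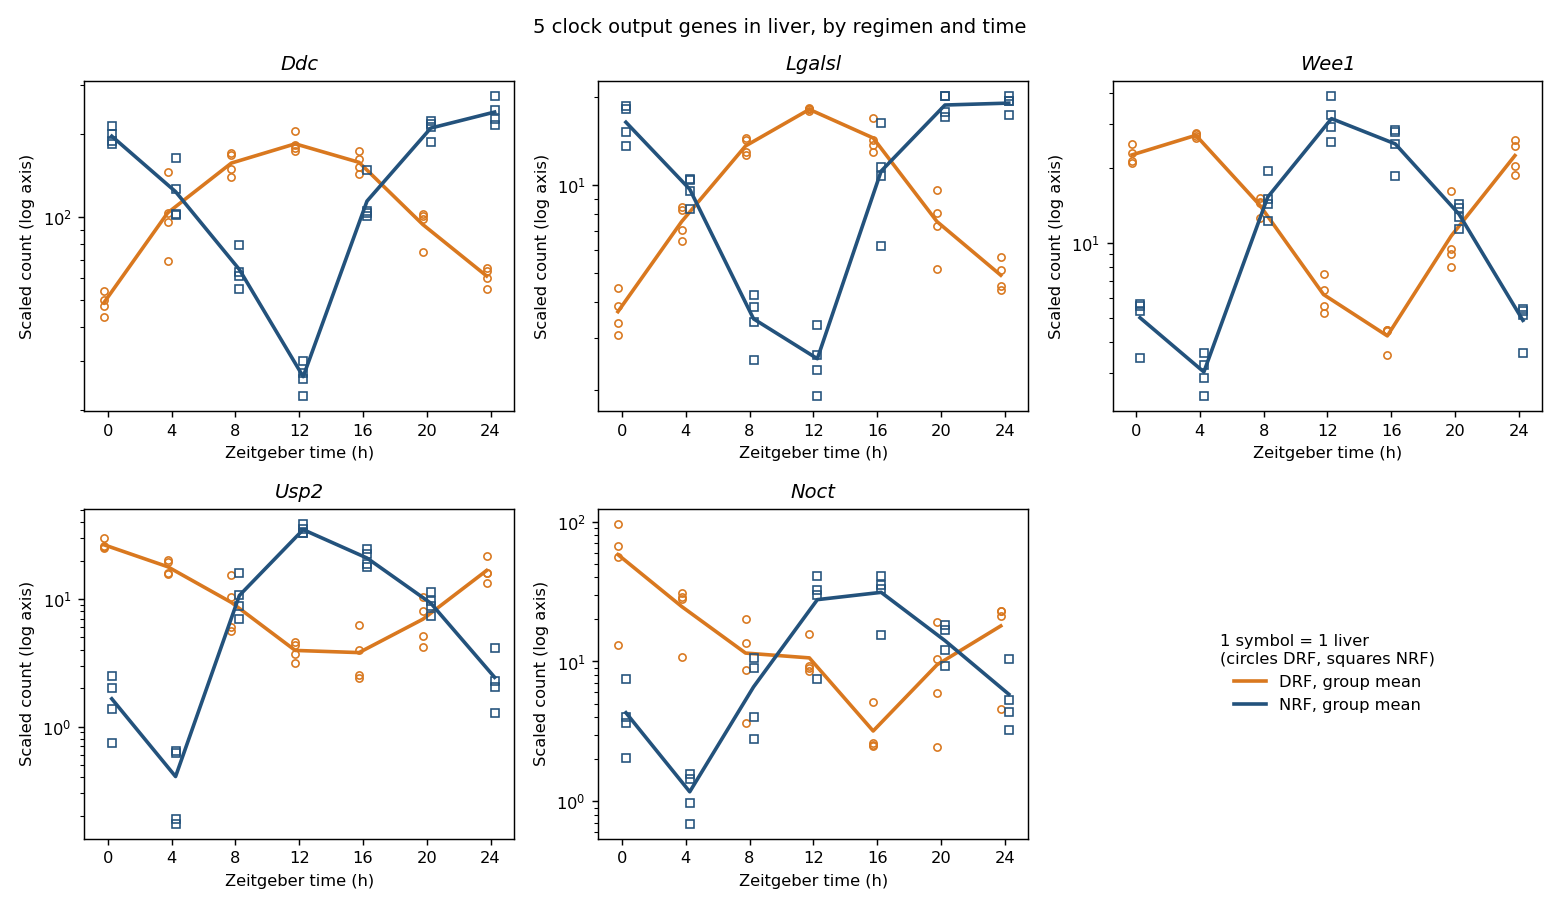
Scaled counts (log axis) against zeitgeber time (h), with 1 panel per gene, circles for DRF livers, squares for NRF livers and lines through the means of 4 livers. Ddc and Lgalsl peak at ZT12 under DRF and ZT24 under NRF, and Noct shows the widest scatter between animals, from 13.0 to 96.5 at DRF ZT0.

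Ddc had values of 173, 177, 182 and 204 scaled counts in the 4 DRF livers of ZT12 and of 50.2, 43.5, 54.1 and 47.8 in those of ZT0. Its group means were 184 ± 14.02 (SD, n = 4) and 48.9 ± 4.42, a ratio of 3.76. Under NRF, Ddc had 226, 245, 274 and 215 scaled counts at ZT24 and 25.9, 27.2, 22.5 and 30.2 at ZT12. The means were 240 ± 26.1 (SD, n = 4) and 26.4 ± 3.19, a ratio of 9.07. In both regimens the highest and the lowest group were far apart, and the NRF trough at ZT12 lay below every DRF value of the gene. In order of level, DRF groups of Ddc overlapped in range from ZT20 upwards (ZT20, ZT4, ZT8, ZT16, ZT12), while ZT0 and ZT24 each stood apart. Under NRF, ZT16 and ZT4 overlapped, as did ZT0 with ZT20 and ZT20 with ZT24.

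Lgalsl followed Ddc in time at a lower level. Its DRF livers had 18.2, 18.3, 18.2 and 17.9 scaled counts at ZT12 and 4.46, 3.08, 3.38 and 3.88 at ZT0. The group means were 18.1 ± 0.184 (SD, n = 4) and 3.701 ± 0.606, a ratio of 4.90, and the peak varied little between animals. Under NRF its livers had 20.1, 19.3, 19.4 and 17.4 at ZT24 and 1.91, 2.35, 2.64 and 3.33 at ZT12. Here the means were 19.0 ± 1.18 (SD, n = 4) and 2.56 ± 0.599, a ratio of 7.44. Most neighbours in the order of levels overlapped. Under DRF the ranges were apart only between ZT4 and ZT8 and between ZT16 and ZT12, and under NRF only between ZT8 and ZT4.

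Wee1 had its highest DRF group at ZT4, with 26.3, 27.5, 27.5 and 26.9 scaled counts, and its lowest at ZT16, with 4.47, 4.43, 4.44 and 3.53. The means were 27.1 ± 0.582 (SD, n = 4) and 4.22 ± 0.456, a ratio of 6.42. Under NRF the highest group was ZT12, with 25.5, 29.1, 38.9 and 32.8, and the lowest ZT4, with 2.41, 2.86, 3.21 and 3.59. Those means were 31.6 ± 5.72 (SD, n = 4) and 3.02 ± 0.502, a ratio of 10.46. In the order of levels, the neighbours ZT20 and ZT8 and the neighbours ZT24 and ZT0 overlapped under DRF. Under NRF the ranges were apart between ZT4 and ZT24 and between ZT0 and ZT20, and all other neighbours overlapped.

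Usp2 showed the widest range of the 5 genes under NRF. Its NRF livers had 38.9, 32.7, 35.5 and 32.8 scaled counts at ZT12 and 0.642, 0.173, 0.620 and 0.190 at ZT4. The means were 35.0 ± 2.93 (SD, n = 4) and 0.406 ± 0.260, a ratio of 86.0 that rests on values below 1 scaled count. The lowest library held 85 recovered counts, which are not reads. Under DRF the livers had 25.5, 30.2, 25.8 and 24.9 at ZT0 and 6.30, 3.95, 2.54 and 2.42 at ZT16. There the means were 26.6 ± 2.44 (SD, n = 4) and 3.802 ± 1.804, a ratio of 7.00. The lowest of the 28 DRF livers had 2.42 scaled counts, while the 4 NRF livers of ZT4 all lay below 1 scaled count. DRF neighbours overlapped at every step but the last, from ZT4 to ZT0, and NRF neighbours overlapped between ZT0 and ZT24 and between ZT20 and ZT8.

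Noct varied most between animals of a group. Its DRF livers had 13.0, 96.5, 67.2 and 55.5 scaled counts at ZT0 and 5.15, 2.59, 2.52 and 2.47 at ZT16. The means were 58.1 ± 34.6 (SD, n = 4) and 3.18 ± 1.31, a ratio of 18.2 that rests on ZT0. At DRF ZT24, the same clock time, the mean was 17.9 ± 8.94, below that of DRF ZT4 (24.7 ± 9.34). Under NRF the livers had 40.7, 15.4, 35.4 and 33.2 at ZT16 and 1.56, 0.691, 0.977 and 1.46 at ZT4. Those means were 31.2 ± 11.0 (SD, n = 4) and 1.17 ± 0.408, a ratio of 26.6. Every pair of neighbouring DRF groups overlapped, and under NRF only ZT4 stood apart from the next group, ZT0.

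Per kilobase of exon, and averaged over the 6 clock times with ZT0 and ZT24 taken as 1 time, the DRF level was 28.1 scaled counts for Ddc, 4.13 for Wee1, 2.66 for Lgalsl, 2.203 for Usp2 and 1.52 for Noct. Under NRF it was 28.3 for Ddc, 4.52 for Wee1, 2.71 for Usp2, 2.57 for Lgalsl and 1.34 for Noct. By this measure Ddc was the highest and Noct the lowest of the 5 in both regimens. The measure depends on the exon length, taken as 10658 bases for Noct. Its transcripts Noct-201 and Noct-202 have 3059 and 9797 bases, with mean deposited values of 16.8 and 2.94. The rank of Noct with a shorter length was not examined.

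A 24-h cosine was fitted to log2(scaled count + 1) of every gene, with its amplitude measured from the middle level to the peak. Fitted peaks of Ddc lay at 11.9 h ± 0.438 (SE, n = 28) under DRF and 22.7 h ± 0.281 under NRF, and those of Lgalsl at 12.1 h ± 0.320 and 21.9 h ± 0.225. Wee1 peaked at 2.83 h ± 0.235 and 13.98 h ± 0.203, Usp2 at 2.22 h ± 0.423 and 14.1 h ± 0.251, and Noct at 2.85 h ± 0.732 and 15.5 h ± 0.492. The shift between the regimens was shortest for Lgalsl, 9.88 h with a 95% interval of 9.09 to 10.7 h. It was 10.8 h (9.73 to 11.8) for Ddc, 11.1 h (10.52 to 11.8) for Wee1, 11.3 h (9.57 to 13.1) for Noct and 11.9 h (10.9 to 12.9) for Usp2. Each shift is the shorter way round the day, and interval limits beyond 12 h were not folded back. By that way the DRF peak was earlier than the NRF peak in Ddc, Lgalsl and Wee1. For Usp2 and Noct the interval of the shift includes 12 h, so earlier and later cannot be told apart. Differences between the genes were not tested.

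**Figure D2:**
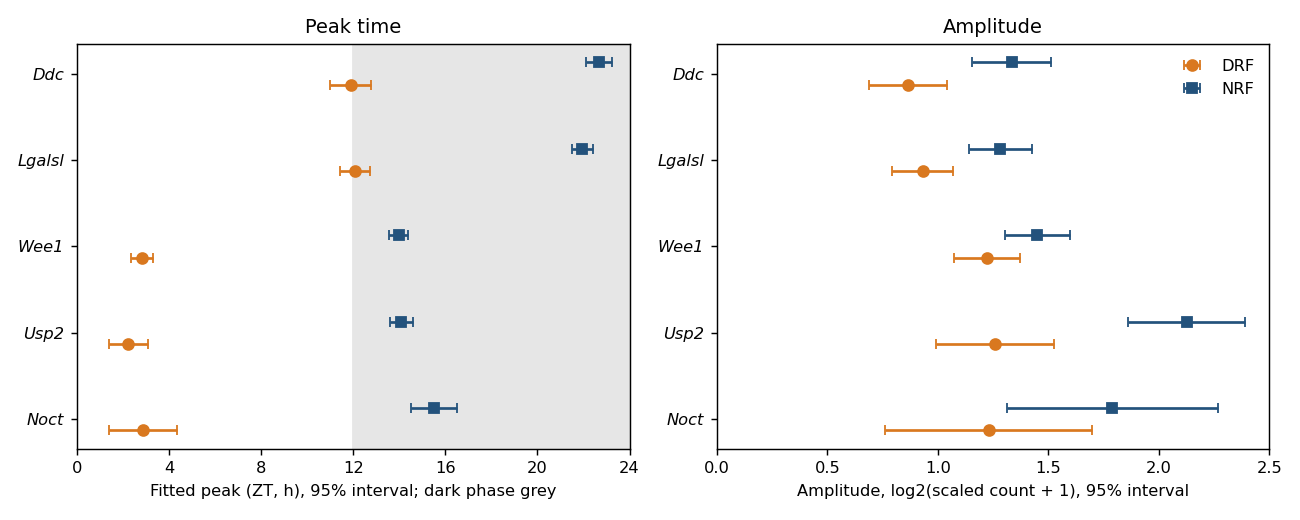
Left, fitted peak time (ZT, h) with its 95% interval for each gene under DRF (circles) and NRF (squares), with the dark phase in grey. Right, the amplitude on the log2 scale with its 95% interval. Every fitted amplitude on this scale is lower under DRF, with the smallest difference for Wee1 (1.22 against 1.45) and the largest for Usp2 (1.26 against 2.12).

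The cosine accounted for 86.3% of the variance of Ddc under DRF and 86.8% under NRF, for 92.2% and 90.5% of that of Lgalsl, and for 83.0% and 89.4% of that of Usp2. For Wee1 it was 95.3% and 91.7%, and the DRF share was rank 1 of the 13319 genes. Noct differed from the other 4, with 79.2% under NRF and 44.7% under DRF, where it was rank 4171. Its amplitude under DRF was nevertheless rank 32 of all genes, so the gene met the description of a large rhythm by size and, under DRF, less by regularity. By amplitude, the other ranks were 120 (DRF) and 57 (NRF) for Ddc, 98 and 72 for Lgalsl, 34 and 47 for Wee1, and 29 and 8 for Usp2, and Noct was rank 18 under NRF.

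Rhythm amplitude was lower under DRF than under NRF in 3 of the 5 genes by the test of the difference, and the fitted value was lower in all 5, except that in scaled counts without the log the difference of Noct was 0.664 (adjusted p = 0.958). Of all genes, 11.5% passed this test and 8.21% passed it with a lower amplitude under DRF. The fitted difference was below 0 in 57.0% of all genes, with a median of -0.02 on the log2 scale against -0.47 over the 5 genes. The 5 genes were chosen for large amplitudes, which leave more room for a difference, so all genes are not a like background here.

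Usp2 had the largest difference, with an amplitude of 1.26 ± 0.132 (SE, n = 28) on the log2 scale under DRF and 2.12 ± 0.132 under NRF. The difference was -0.87 with a 95% interval of -1.24 to -0.49 (24-h cosinor with Benjamini-Hochberg adjustment over all genes, adjusted p = 0.00124). Ddc had 1.33 ± 0.0890 under NRF and 0.87 ± 0.0875 under DRF, a difference of -0.47 (-0.72 to -0.22, adjusted p = 0.00959, same test). Lgalsl had 1.28 ± 0.0712 and 0.93 ± 0.0687, a difference of -0.35 (-0.55 to -0.15, adjusted p = 0.0142). In terms of the fitted cosine, the fold of (scaled count + 1) from trough to peak was 5.71 under DRF and 19.0 under NRF for Usp2. It was 3.32 and 6.35 for Ddc, and 3.63 and 5.91 for Lgalsl.

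The difference did not pass for Wee1, -0.23 (-0.44 to -0.02, adjusted p = 0.153), with amplitudes of 1.22 ± 0.0744 and 1.45 ± 0.0724. It did not pass for Noct either, -0.56 (-1.23 to 0.11, adjusted p = 0.304), with amplitudes of 1.23 ± 0.233 and 1.79 ± 0.238, and its wide interval includes the difference of the other 4 genes. Without 1 replicate the Noct difference lay between -0.66 and -0.35, the latter without replicate 1. The call of Usp2 held without each replicate in turn. That of Ddc had adjusted p-values of 0.0512, 0.0505 and 0.127 without replicates 1, 2 and 3, and that of Lgalsl 0.0608, 0.0580 and 0.116, with the differences between -0.53 and -0.31 on the log2 scale for both genes.

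The daily mean of the 5 genes was not called different between the regimens. Of all genes 11.3% were called, and 0 of the 5 by limma. At an unadjusted p under 0.05 there was 1 of the 5, against 3193 of 13319 genes. On the log2 scale, the mean under DRF minus that under NRF was 0.18 (95% interval -0.003 to 0.36, adjusted p = 0.219) for Ddc and 0.20 (0.05 to 0.34, adjusted p = 0.0672) for Lgalsl. It was -0.03 (-0.18 to 0.11, adjusted p = 0.839) for Wee1, 0.14 (-0.13 to 0.40, adjusted p = 0.576) for Usp2 and 0.29 (-0.17 to 0.74, adjusted p = 0.483) for Noct. With the mean of the group means over 6 clock times in place of the fitted mean, Ddc (0.18, adjusted p = 0.0176) and Lgalsl (0.20, adjusted p = 0.0209) were called higher under DRF. Without the log scale, the fitted mean was lower under DRF for Ddc (-2.03 scaled counts, adjusted p = 0.865) and for Usp2 (-2.48 scaled counts, adjusted p = 0.217), neither of them called.

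To ask how far a profile under day feeding equals that under night feeding moved by 12 h, each DRF time was compared with the NRF time 12 h away, ZT0 and ZT24 being averaged. A shift other than 12 h and a difference in amplitude both enter these contrasts, so they are not separate results. The 6 contrasts together differed in Ddc (limma F test, adjusted p = 1.65e-08), Lgalsl (adjusted p = 2.5e-07), Usp2 (adjusted p = 6.31e-07) and Wee1 (adjusted p = 0.000537), and not in Noct (adjusted p = 0.217). Of all genes 62.4% passed this F test, so the 4 of 5 genes are near the background and the single contrasts show where each profile departed from its mirror.

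**Figure D3:**
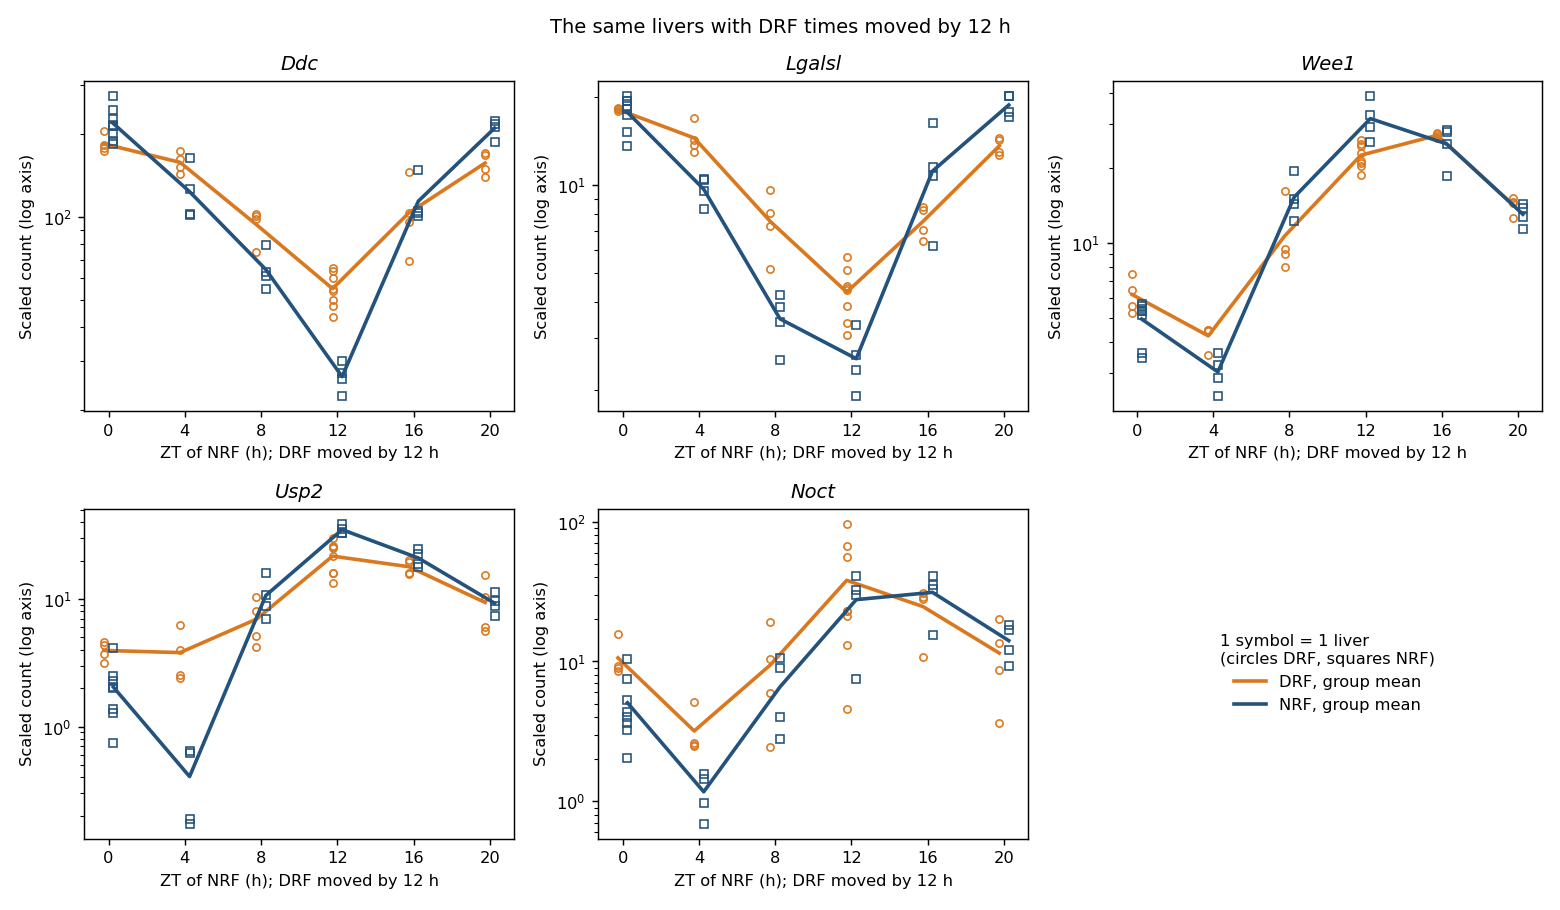
Scaled counts (log axis) against the zeitgeber time of the NRF livers (h), with DRF times moved by 12 h, circles for DRF, squares for NRF and lines through group means (ZT0 and ZT24 averaged). The moved DRF profile runs above the NRF profile at the trough of all 5 genes, most at NRF ZT4 in Usp2, where the means are 3.802 and 0.406.

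At the trough, the DRF value was the higher one in 3 genes by the test, and the fitted difference was above 0 in all 5. For Usp2, DRF ZT16 (2.42 to 6.30) lay above NRF ZT4 (0.173 to 0.642) with no overlap, a difference of 1.72 ± 0.253 (SE) on the log2 scale (adjusted p = 2.46e-06 by limma, called in 28.6% of genes). For Ddc, the DRF livers of ZT0 and ZT24 (43.5 to 65.5) lay above those of NRF ZT12 (22.5 to 30.2), a difference of 1.03 ± 0.124 (adjusted p = 1.52e-07). The same contrast for Lgalsl was 0.58 ± 0.134 (adjusted p = 0.00312), and 10.3% of genes were called in it. Wee1 had a difference of 0.38 ± 0.153 (adjusted p = 0.0568) and Noct of 0.92 ± 0.530 (adjusted p = 0.193) between DRF ZT16 and NRF ZT4, neither of which passed. Wee1 was called there without replicate 4 (adjusted p = 0.0163), with a pseudocount of 0.25 (0.0342), with median-of-ratios scaling (0.0426), with a mean of at least 5 scaled counts (0.0493) and with the values as deposited (0.00049), and Noct was called with the values as deposited (0.80, adjusted p = 0.00397). The calls at the trough held without each replicate for Usp2 and Ddc, while that of Lgalsl had an adjusted p of 0.116 without replicate 1. In scaled counts without the log, the trough differences of Usp2 (3.396, adjusted p = 0.162), Ddc (28.6, adjusted p = 0.0753) and Lgalsl (1.76, adjusted p = 0.298) were not called.

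At the peak the genes differed from each other. Usp2 was lower at DRF ZT0 and ZT24 than at NRF ZT12 (limma, -0.71 ± 0.219 on the log2 scale, adjusted p = 0.0298). Its averaged DRF groups differed, with means of 26.6 ± 2.44 (SD, n = 4) at ZT0 and 16.7 ± 3.46 at ZT24, against 35.0 ± 2.93 at NRF ZT12. Wee1 was likewise lower (-0.46 ± 0.133, adjusted p = 0.0186), while Noct was not called (0.19 ± 0.459, adjusted p = 0.847). In the next contrast, DRF ZT4 against NRF ZT16, Wee1 (0.13 ± 0.153) and Usp2 (-0.21 ± 0.253) were not called, and 24.3% of genes were. Ddc (-0.23 ± 0.124, adjusted p = 0.244) and Lgalsl (0.04 ± 0.134, adjusted p = 0.888) were not called at DRF ZT12 against NRF ZT0 and ZT24, a contrast that called 8.66% of genes. Usp2 was called there and was higher under DRF (0.76 ± 0.219, adjusted p = 0.0231). Its DRF means were 3.95 ± 0.671 (SD, n = 4) at ZT12 and 3.802 ± 1.804 at ZT16. Both of these calls of Usp2 were lost when a replicate was left out, with adjusted p-values of 0.0614 to 0.112 without each of the 4 for the former and 0.0651, 0.0882 and 0.154 without replicates 1, 2 and 4 for the latter. The former was also lost with a pseudocount of 0.25 (0.0733) and with the values as deposited (0.548), and the latter with a pseudocount of 4 (0.0802) and without the log (0.492). The peak call of Wee1 was lost without replicate 2 (adjusted p = 0.0765) and 3 (0.145) and with the values as deposited (0.21). At DRF ZT12 against NRF ZT0 and ZT24, Ddc was called lower under DRF without the log (-33.98 scaled counts, adjusted p = 0.0362), and Wee1 was called higher with the values as deposited (0.18, adjusted p = 0.0416).

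The flanks gave opposite signs before and after the peak of Ddc and Lgalsl. On the rising side, DRF ZT8 was below NRF ZT20 in Ddc (limma, -0.42 ± 0.143, adjusted p = 0.0309) and in Lgalsl (-0.43 ± 0.155, adjusted p = 0.039), with 21.3% of genes called. DRF ZT4 was below NRF ZT16 in Lgalsl (-0.45 ± 0.155, adjusted p = 0.0279) and not called in Ddc (-0.17 ± 0.143). On the falling side, DRF ZT16 was above NRF ZT4 by 0.37 ± 0.143 for Ddc (adjusted p = 0.0441) and 0.53 ± 0.155 for Lgalsl (adjusted p = 0.00787), and DRF ZT20 was above NRF ZT8 by 0.54 ± 0.143 (adjusted p = 0.00438) and 0.91 ± 0.155 (adjusted p = 2.49e-05). In that last contrast, called in 27.4% of genes, Wee1 was lower under DRF (-0.51 ± 0.153, adjusted p = 0.0107). Usp2 had -0.56 ± 0.253 there and did not pass (adjusted p = 0.0915). The call of Lgalsl at DRF ZT20 held without each replicate. The rising-side calls were lost without replicates 1, 2 and 3 for Ddc (adjusted p from 0.107 to 0.155), without each of the 4 for Lgalsl at DRF ZT8 (0.0509 to 0.141) and without replicates 1, 2 and 4 at DRF ZT4 (0.153 to 0.21). On the falling side, Ddc was lost at DRF ZT16 without each of the 4 replicates (0.0564 to 0.265) and at DRF ZT20 without replicate 3 (0.0974), and Lgalsl at DRF ZT16 without replicate 1 (0.0616). For Wee1 the call was lost without replicates 1 (0.0971) and 3 (0.165), with the values as deposited (0.128) and without the log (0.0587). Other settings also ended the calls of Ddc at DRF ZT20 (0.0657 without the log) and at DRF ZT16 (0.0662 with no filter and 0.0627 with the length trend removed), and that of Lgalsl at DRF ZT8 (0.0526 with a pseudocount of 0.25 and 0.0613 with no filter).

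**Figure D4:**
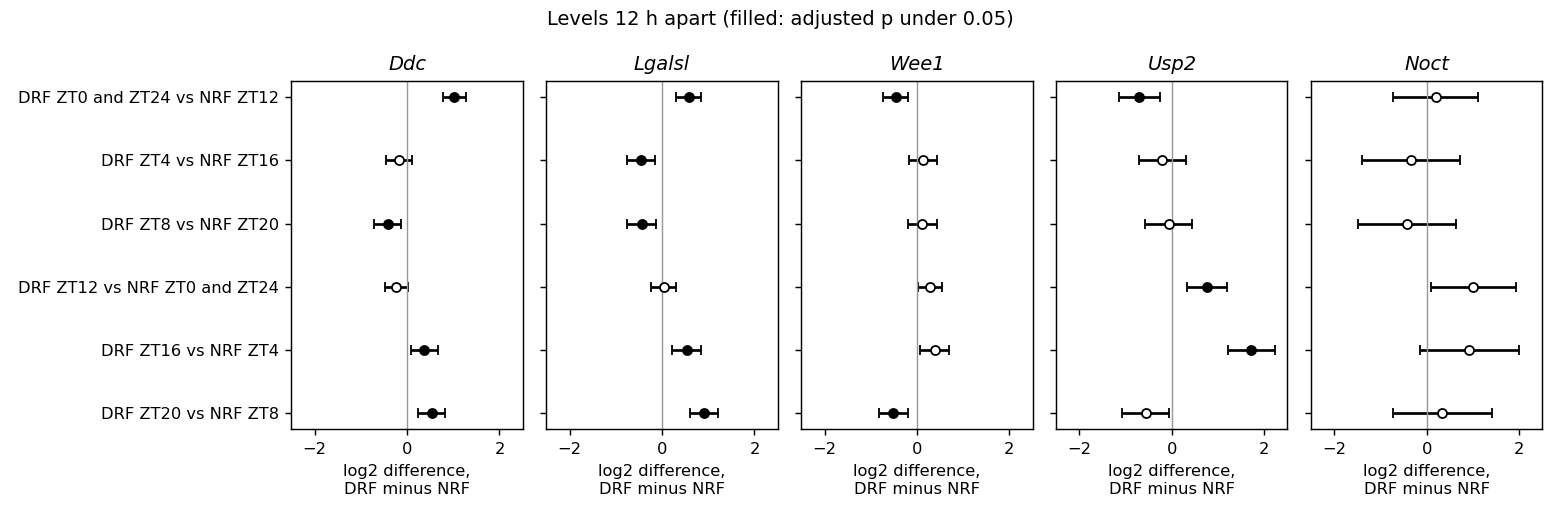
Differences on the log2 scale between DRF and the NRF time 12 h away, with 95% intervals, for each gene and contrast, filled where the adjusted p is under 0.05. Intervals of Noct are the widest, and the 1.72 of Usp2 at DRF ZT16 against NRF ZT4 is the largest difference.

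The shape of the day was examined by adding a 12-h term to the cosine. Under NRF the 12-h term was called in 4 of the 5 genes, against 4.49% of all genes, with amplitudes on the log2 scale of 0.62 for Usp2 (limma, adjusted p = 0.000899), 0.37 for Ddc (adjusted p = 0.00189), 0.35 for Wee1 (adjusted p = 0.00143) and 0.26 for Lgalsl (adjusted p = 0.0264). Noct had 0.33 and did not pass (adjusted p = 0.631). The 5 genes were chosen for large rhythms, so the share of all genes is not that of genes with like rhythms. Under DRF 9.67% of all genes were called and 0 of the 5 by limma. At an unadjusted p under 0.05 there were 2 of the 5, against 3288 of 13319 genes. The DRF amplitudes were 0.21 for Ddc, 0.12 for Lgalsl, 0.07 for Wee1, 0.18 for Usp2 and 0.55 for Noct. Whether the 12-h term differed between the regimens was not tested. The call of Usp2 under NRF held without each replicate. That of Ddc was lost without replicate 1 (adjusted p = 0.0934), that of Wee1 without replicate 3 (0.0899) and that of Lgalsl without replicates 1, 2 and 4 (0.292, 0.139 and 0.0925). Noct was called under DRF without replicate 1 (0.81, adjusted p = 0.0473). In scaled counts without the log, 2 of the 5 genes were called under NRF, Wee1 and Usp2, with adjusted p-values of 0.469 for Ddc and 0.763 for Lgalsl. With a pseudocount of 4, Lgalsl was not called (adjusted p = 0.127).

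ZT24 and ZT0 are the same clock time at the ends of the collection and were compared as a control. Of all genes, 6.22% were called under DRF and 13.9% under NRF, and 0 of the 5 in either regimen by limma. At an unadjusted p under 0.05 there were 4 of the 5 under DRF, against 3054 of 13319 genes. Under NRF there were 0 of the 5, against 3574 of 13319 genes. Noct had the largest difference under DRF, with 13.0, 96.5, 67.2 and 55.5 scaled counts at ZT0 and 4.61, 21.1, 23.1 and 23.0 at ZT24, or -1.55 ± 0.530 on the log2 scale (adjusted p = 0.0652). Usp2 had 24.9 to 30.2 at DRF ZT0 and 13.4 to 21.6 at DRF ZT24, ranges that did not overlap (-0.66 ± 0.253, adjusted p = 0.104). Both were called by limma with a pseudocount of 4 (adjusted p = 0.0406 for Noct and 0.0399 for Usp2) and in scaled counts without the log (0.00159 and 0.000842). Ddc (0.32 ± 0.143, adjusted p = 0.165) and Lgalsl (0.34 ± 0.155, adjusted p = 0.175) had higher values at DRF ZT24 and were called with the values as deposited (adjusted p = 0.0185 and 0.026), and Wee1 had -0.02 ± 0.153. Under NRF the differences lay between -0.02 for Wee1 and 0.36 for Noct and for Usp2. Ddc was called under NRF in scaled counts without the log (43.7, adjusted p = 0.0123) and with the values as deposited (adjusted p = 0.00211). The change from ZT0 to ZT24 was not called different between the regimens in any of 13319 genes, 0 genes passing in limma and 864 at an unadjusted p under 0.05, Usp2 (adjusted p = 0.636) and Noct (adjusted p = 0.658) included.

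Across the 56 livers, which share the same clock times and regimens, Ddc and Lgalsl correlated at r = 0.95 and Wee1 and Usp2 at r = 0.95 on the log2 scale. Noct correlated with Usp2 at 0.82 and with Wee1 at 0.78, and less under DRF (0.80 and 0.68 over 28 livers) than under NRF (0.85 for both). Between the phases the correlations were negative, from -0.67 for Ddc with Usp2 to -0.39 for Lgalsl with Noct.

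The genes most like each member over the 56 livers came partly from the clock itself. Arntl was the closest to Ddc (r = 0.96) and to Lgalsl (r = 0.96), followed by Slc30a10 (0.95) and Tubb2a (0.94) for Ddc and by Abtb2 (0.94) and Tubb2a (0.94) for Lgalsl. Per3, a repressor of the clock, was the closest to Wee1 (0.94) and to Usp2 (0.94). Gys2, the liver glycogen synthase, and Fam102a followed for Wee1 (0.93 and 0.90), and Nrg4 and Tef for Usp2 (0.91 and 0.91). For Noct the closest was Gm38357 (0.88), then Klf3 (0.85) and Bhlhe40 (0.84). Gm38357 spans 51231917 to 51234380 of chromosome 3, inside Noct and on its strand without sharing an exon base, so unspliced Noct RNA over it cannot be told apart from it.

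Clock genes and other rhythmic liver genes gave the setting for these values. Of 19 clock genes, 17 were tested, and 10 had a lower amplitude under DRF and 0 a higher one, with a median difference of -0.59 on the log2 scale. The largest was Nr1d1, which encodes REV-ERBα (-1.69 ± 0.227, adjusted p = 1.03e-06), and the fitted difference was above 0 in Rora (0.14 ± 0.0583, adjusted p = 0.1), whose shift was 1.27 h, and in Hlf (0.09 ± 0.103, adjusted p = 0.668), neither of them called. Of 15 other output genes, 14 were tested, and 7 had a lower and 0 a higher amplitude, with a median of -0.34. Here Upp2, a uridine phosphorylase, had the largest difference (-1.07 ± 0.211, adjusted p = 0.000419), and Cdkn1a, a cell cycle inhibitor, had 0.23 ± 0.132 (adjusted p = 0.293). Of all genes, 8.21% were called with a lower amplitude under DRF. Both lists were named for rhythms, so all genes are not a like background. The shift had a median of 11.1 h in the clock genes, with 15 of 17 over 8 h, and of 10.51 h in the output genes, with 13 of 14 over 8 h. All 17 and all 14 differed over levels 12 h apart, against the 62.4% of all genes. The daily mean was higher under DRF in 2 clock genes and lower in 0, and higher in 3 and lower in 4 output genes. Among all 13319 genes, 1014 were called higher and 495 lower. In scaled counts without the log the daily mean was higher in 0 and lower in 2 clock genes and higher in 0 and lower in 4 output genes. Without 1 replicate, between 7 and 9 clock genes and between 4 and 5 output genes had a lower amplitude under DRF and 0 a higher one, the fewest in both lists without replicate 2. In scaled counts without the log, 5 clock genes and 7 output genes had a lower amplitude and 0 a higher one.

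In the transcript table, whose values are compressed and could not be put on a linear scale, 19 transcripts of the 5 genes were listed. Wee1 had 1 transcript. Usp2-201 and Usp2-202, which start at 44067021 and 44084939 of chromosome 9, were both highest at ZT0 under DRF and ZT12 under NRF. The deposited means of Usp2-202 were 34.0 ± 1.12 (SD, n = 4) and 35.7 ± 1.40 there, and 12.2 ± 3.28 at DRF ZT16 and 2.13 ± 0.966 at NRF ZT4. Usp2-201 had 23.9 ± 0.419 and 25.9 ± 1.76 at these peaks, and 12.6 ± 2.70 and 2.35 ± 1.78 at the same troughs. Under DRF both transcripts had the higher mean at the trough and a slightly lower one at the peak. These differences are on the compressed scale and were not tested. For Noct, Noct-201 had 31.1 ± 8.62 at DRF ZT0 and 23.0 ± 5.99 at NRF ZT12, and 10.4 ± 2.80 at DRF ZT16 and 5.21 ± 1.60 at NRF ZT4. Ddc-210, which starts at 11898144 of chromosome 11 at the end of the Ddc promoter shown, was the main transcript of Ddc, with 81.3 ± 0.992 at DRF ZT12 and 61.4 ± 1.29 at DRF ZT0 against 83.9 ± 2.23 at NRF ZT24 and 52.6 ± 1.62 at NRF ZT12. Lgalsl had 4 transcripts at low values. Its protein-coding transcript, Lgalsl-201, did not follow the gene: it was highest at ZT4 under DRF (4.08 ± 4.13, SD, n = 4) and ZT20 under NRF (4.802 ± 6.84), with SDs above the means, and lowest at ZT24 in both (0.564 ± 0.117 and 1.125 ± 0.203), where the NRF level of the gene was highest. Lgalsl-203, a processed transcript, was highest at ZT12 under DRF (5.48 ± 1.04) and ZT0 under NRF (6.60 ± 1.64). The circular RNA table was not used here.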

How the data were processed

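Liver RNA of 56 mice was depleted of ribosomal RNA and sequenced in pairs from strand-specific libraries. Per the labels, the authors' processing notes name CASAVA 1.8 and featureCounts 1.5.0-p3, and the builds mm10 and GRCm38.p6, without a role. Gene and transcript values were deposited by the authors as TPM, but they are not linear and are treated as a score. Value times exon length (GENCODE M21) followed a·ln(1 + f·k) per library, with whole k. In genes left out of the fit, between 96.6% and 99.0% of values came out within 0.05 of a whole number, where 10% would by chance. Recovered counts were rebuilt for 24978 of 25415 genes. One scaled count, f·k, stood for 304 to 723 recovered counts. How far recovered counts follow reads is unknown, so precision rests on the spread between animals. The planned design named linear TPM, and its tests were applied to scaled counts.

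Genes with a mean of at least 1 scaled count were kept (13319), and log2(scaled count + 1) was fitted with limma 3.58.1 in R 4.3.3, a scale that understates changes of low genes. Cosinor amplitudes were compared with delta-method errors, from a spread per gene shared by both regimens. P-values were two-sided and adjusted by Benjamini-Hochberg over all genes tested. The functions were tested on simulated data. Members and lists were chosen with earlier results of these data known. Besides the 5 genes, the 3 genes with the highest correlation to each were named, and from lists of clock and output genes up to 4 with the largest and the smallest value of a quantity. Motifs of the core promoter were chosen after the sequences were seen. Alternatives were other pseudocounts, scaling, filters, scales, an exon-length trend, other mean and amplitude terms, a replicate block and leaving out each replicate.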

Additional observations from a re-analysis of the deposited data

Results flagged for a closer look

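In 8 of the 70 combinations of gene and group, 1 of the 4 animals lay far from the other 3, by the gap to its neighbour over the whole range; chance gives such a value in about 1 of 20 groups. Noct accounted for 4 of them, all under DRF: 10.8 scaled counts at ZT4 (replicate 2) against 28.1 to 30.8 in the others, 15.7 at ZT12 (replicate 4) against 8.51 to 9.23, 5.15 at ZT16 (replicate 1) against 2.47 to 2.59, and 4.61 at ZT24 (replicate 1) against 21.1 to 23.1. For Ddc, DRF ZT20 replicate 4 had 74.5 against 98.1 to 102, and NRF ZT16 replicate 4 had 148 against 101 to 105. For Wee1, DRF ZT16 replicate 4 had 3.53 against 4.43 to 4.47, and NRF ZT0 replicate 4 had 3.44 against 5.31 to 5.64.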

How the results depend on the processing

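Of 298 values of the main comparisons under other settings (the daily mean, the amplitude difference and the F test of each gene, and the counts of genes called), 257 kept their direction and their side of the threshold, or stayed within 1.5 times the count, as did 707 of 825 other values. The calls of Usp2 in amplitude and those of Ddc, Lgalsl, Wee1 and Usp2 in the F test held under every alternative run. The causes of the changes that follow were not tested. On the linear scale the daily mean difference was -2.03 scaled counts for Ddc and -2.48 for Usp2, the amplitude difference of Noct was 0.664 and the difference of Usp2 at DRF ZT8 against NRF ZT20 was 0.128. With a pseudocount of 4 the daily mean difference of Usp2 was -0.0135. With the values as deposited, that of Wee1 was 0.0226 and that of Lgalsl 0.14 (called), Wee1 had -0.0116 at DRF ZT4 and -0.0204 at DRF ZT8 against the times 12 h away, and 0.052 (DRF) and 0.0893 (NRF) at ZT24 against ZT0, and Noct passed the F test (adjusted p = 0.00843). Wee1 at ZT24 against ZT0 was 0.00628 (DRF) and 0.00944 (NRF) with median-of-ratios scaling and 0.0163 (DRF) without the length trend. The mean of group means called Ddc (0.18) and Lgalsl (0.20), and adding 12-h terms called Wee1 in amplitude (-0.25, adjusted p = 0.0334). Genes called for ZT24 against ZT0 numbered 2247 (DRF) and 6090 (NRF) with the values as deposited and 1020 (NRF) with a mean of at least 5 scaled counts, and for the 12-h component 575 (DRF) and 207 (NRF) with the values as deposited.

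Without 1 replicate, the amplitude difference lay between -0.53 and -0.38 for Ddc and between -0.38 and -0.31 for Lgalsl, and the daily mean difference between 0.15 and 0.26 for Lgalsl (called without replicate 4) and between -0.0621 and 0.0181 for Wee1. Wee1 lay between -0.00972 and 0.20 at DRF ZT4, between -0.11 and 0.0726 at ZT24 against ZT0 under DRF and between -0.049 and 0.00966 under NRF, and Usp2 between -0.24 and 0.13 at DRF ZT8. Genes called ranged from 729 to 1235 (daily mean), from 620 to 895 (amplitude), from 124 to 552 and from 247 to 2056 (ZT24 against ZT0, DRF and NRF), and from 408 to 925 and from 138 to 254 (12-h component, DRF and NRF), against 1509, 1529, 828, 1845, 1288 and 598 with all livers.

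Same-numbered animals did not deviate together (median r 0.004 over 364 pairs of libraries, against -0.002 over 1092 pairs with different numbers), so the numbers do not pair the samples. With the replicate block, 1504 genes were called for the daily mean, 1475 for the amplitude and 8329 in the F test, Ddc at DRF ZT16 against NRF ZT4 was not called (0.37, adjusted p = 0.0518) and Noct at ZT24 against ZT0 under DRF was called (-1.55, adjusted p = 0.0488). No other call of the 5 genes changed.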
